A study of Mus musculus with 12 samples.

Results

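The genes of collagens and of the extracellular matrix were followed in mouse medulloblastomas (MBs) and in normal cerebellar tissue. The 40 members were chosen by name and by role, with earlier results of these data known. Of them, 39 were measured among the 18193 genes that the array named. Fbn1 was not analysed here. The tumors were 8 MBs of Nestin-Cre mice deficient for p53, of which 6 were Xrcc4 c/- (MB_630, MB_794, MB_1187, MB_1197, MB_1207 and MB_1224) and 2 were Xrcc4 c/c (MB_706 and MB_1206). XRCC4 is a factor of the end-joining repair of DNA breaks, and the Cre is active in nestin-expressing neural progenitors. The normal samples were granule neural progenitors (GNPs, samples CGNP_2698 and CGNP_2705) and whole cerebellum (WC, samples WC_2646 and WC_2647). They are described as coming from control animals of matched age and the same genotype. Each array held 1 mouse. The labels call the MBs tumor tissue, whereas the methods list 6 of the same mouse numbers among cultured MB cells, so it is unclear which material was hybridized. The methods state a high tumor cell content, judged by histology, for the sequenced tumors, and do not say whether this holds for the material on the arrays.

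Collagens are triple-helical proteins. The fibrillar collagens build the fibers of meninges and other connective tissue, the network-forming collagens build basement membranes with laminins and nidogen, and beaded filament collagens link the networks to cells. Small leucine-rich proteoglycans sit on collagen fibers and control how they assemble. The matrix of brain tissue itself is of another kind, poor in fibers and rich in hyaluronan, with versican, brevican and neurocan bound to it and with tenascin between them. In brain, collagen fibers and basement membranes are found mainly in the meninges and around vessels.

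Levels are given on the log2 scale of the arrays, where a difference of 1 is a doubling and where the lowest possible value was 2.20. A group mean under 3 was taken as near the floor, and a difference with 1 group near the floor is given as "at least". Levels of different genes cannot be set against each other. In bulk samples, fewer cells of a type and less RNA per cell cannot be told apart. Between 42.1% and 43.4% of probe sets were above 5 on each array. The difference between 3′ and 5′ control probe sets, a sign of RNA quality, was 2.93 in MB_706, between 0.56 and 0.82 in the other MBs and between 0.15 and 0.52 in the normal samples. Markers of the granule lineage were at 11.95 in MBs, 5.95 in GNPs and 2.76 in WC for Atoh1. Gli1, a target of SHH signaling, was at 9.10 in MBs but near the floor in GNPs (2.39 and 2.20). The mean level of 6 Purkinje cell markers was 11.64 and 11.75 in WC.

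**Figure D1:**
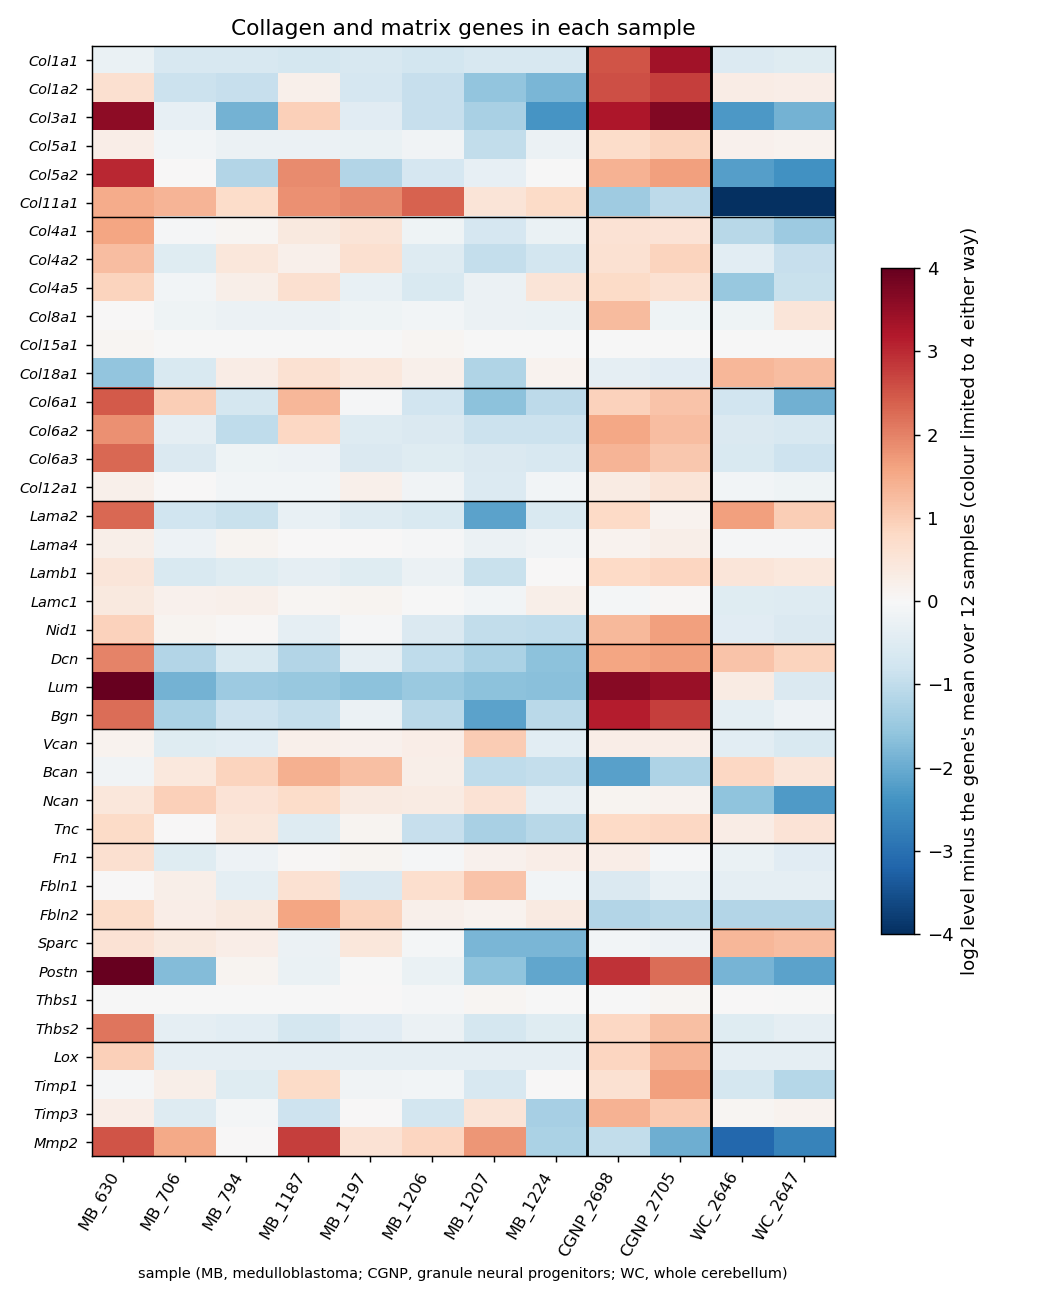
Level of the 39 measured genes (rows, grouped by role) in the 12 samples (columns, MBs left, then GNPs, then WC), as log2 level minus the mean of the gene over all 12 samples, with the colour limited to 4 in either direction. Col1a1, Col1a2, Col3a1, Lum and Bgn are red in both GNP samples, and MB_630 (first column) is the highest MB for 26 of the 39 genes.

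The comparison of MBs with GNPs sets the tumors against the samples labelled as normal granule progenitors. Of the 6 fibrillar collagens 4 were lower in MBs and 1, Col11a1, was higher, and all 3 small leucine-rich proteoglycans were lower. Bcan and Fbln2 were higher. In all, 13 of the 39 members were lower in MBs, against 18.6% of all genes, and 3 were higher, against 18.7% of all genes (limma, Benjamini-Hochberg over all genes, adjusted p under 0.05). The median difference of the members was -0.92, and that of all genes was 0.00. The groups did not overlap for 9 members that were lower, against 20.5% of all genes, and for 3 that were higher, against 21.2%. Without MB_706, 9 members were lower and 2 higher, and without MB_630, which is described below, 19 were lower and 3 higher. Only the calls of Col1a1, Col1a2, Col11a1 and Fbln2 were made again whichever of the 12 samples was left out. That of Fbln2 was lost with values below 5 set to 5.

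Type I and type III collagen genes were lower in the MBs than in the GNPs, but not called different from WC. In WC, Col1a1 was at 2.53 and 2.62, Col1a2 at 5.42 and 5.40, and Col3a1 at 4.43 and 4.84. Col1a1, the main chain of type I collagen, was between 2.37 and 2.84 in the 8 MBs (median 2.45), against 5.62 and 6.46 in the GNPs. Every MB was near the floor and below both GNP samples. The level was at least 3.55 lower in the MBs than in the GNPs on the log2 scale (SE 0.184, adjusted p = 4.01e-07). Col1a2, the second chain of the same collagen, was between 3.30 and 5.77 in the MBs (median 4.24), against 7.72 and 7.90 in the GNPs. The groups did not overlap, and the difference was -3.42 (SE 0.563, adjusted p = 0.000861). One of the 3 probe sets of Col1a2 was near the floor in every group, and on the others the difference was -5.40 and -4.89. Col3a1, the type III chain that is found with type I in soft connective tissue, was between 4.37 and 10.30 in the MBs (median 6.06), against 9.95 and 10.43 in the GNPs. Here MB_630 lay between the 2 GNP samples, while the other 7 MBs were at 7.67 or below. The difference of Col3a1 was -3.80 (SE 1.28, adjusted p = 0.041). This call was lost when either GNP sample, either WC sample or any 1 of MB_706, MB_794, MB_1197, MB_1206, MB_1207 and MB_1224 was left out (adjusted p between 0.0555 and 0.207).

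The chains of type V collagen, which starts the assembly of type I fibers, were less far apart. Col5a1 averaged 3.91 ± 0.35 in the MBs (SD, n = 8), against 4.88 and 5.06 in the GNPs, and all MBs were below both GNP samples (difference -1.06, adjusted p = 0.00563, 0.0632 without CGNP_2705). Col5a2 was between 5.39 and 9.60 in the MBs, against 7.98 and 8.23 in the GNPs, and the groups overlapped. Its difference did not pass the test.

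All 3 small leucine-rich proteoglycans were lower in MBs than in GNPs. Bgn (biglycan) was between 3.53 and 7.91 in the MBs (median 4.66), against 8.81 and 8.45 in the GNPs. No MB reached the GNP samples, and MB_630 was nearest to them. The difference was -3.62 (SE 0.878, adjusted p = 0.00833), and the call was lost without CGNP_2698 (adjusted p = 0.0702) or CGNP_2705 (adjusted p = 0.0501). Lum (lumican) was between 2.20 and 8.59 in the MBs (median 2.51), against 7.72 and 7.55 in the GNPs. MB_630, at 8.59, was above both GNP samples, and the other 7 MBs were at 2.64 or below, near the floor. The difference of Lum was -4.39 with all MBs (SE 1.48, adjusted p = 0.0413) and without MB_630, when the MB mean was near the floor, the level was at least 5.16 lower (adjusted p = 3.08e-07). Dcn (decorin) was between 2.26 and 5.90 in the MBs (median 2.82), against 5.48 and 5.54 in the GNPs. Again only MB_630 was above the GNPs. The difference of Dcn was -2.26 (SE 0.776, adjusted p = 0.0449). The calls of Lum and Dcn were lost when any 1 of the 11 samples other than MB_630 was left out (adjusted p between 0.0576 and 0.192). One of the 2 probe sets of Dcn was at the floor in every group, and on the other Dcn was at 4.30 in MBs and 8.83 in GNPs.

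**Figure D2:**
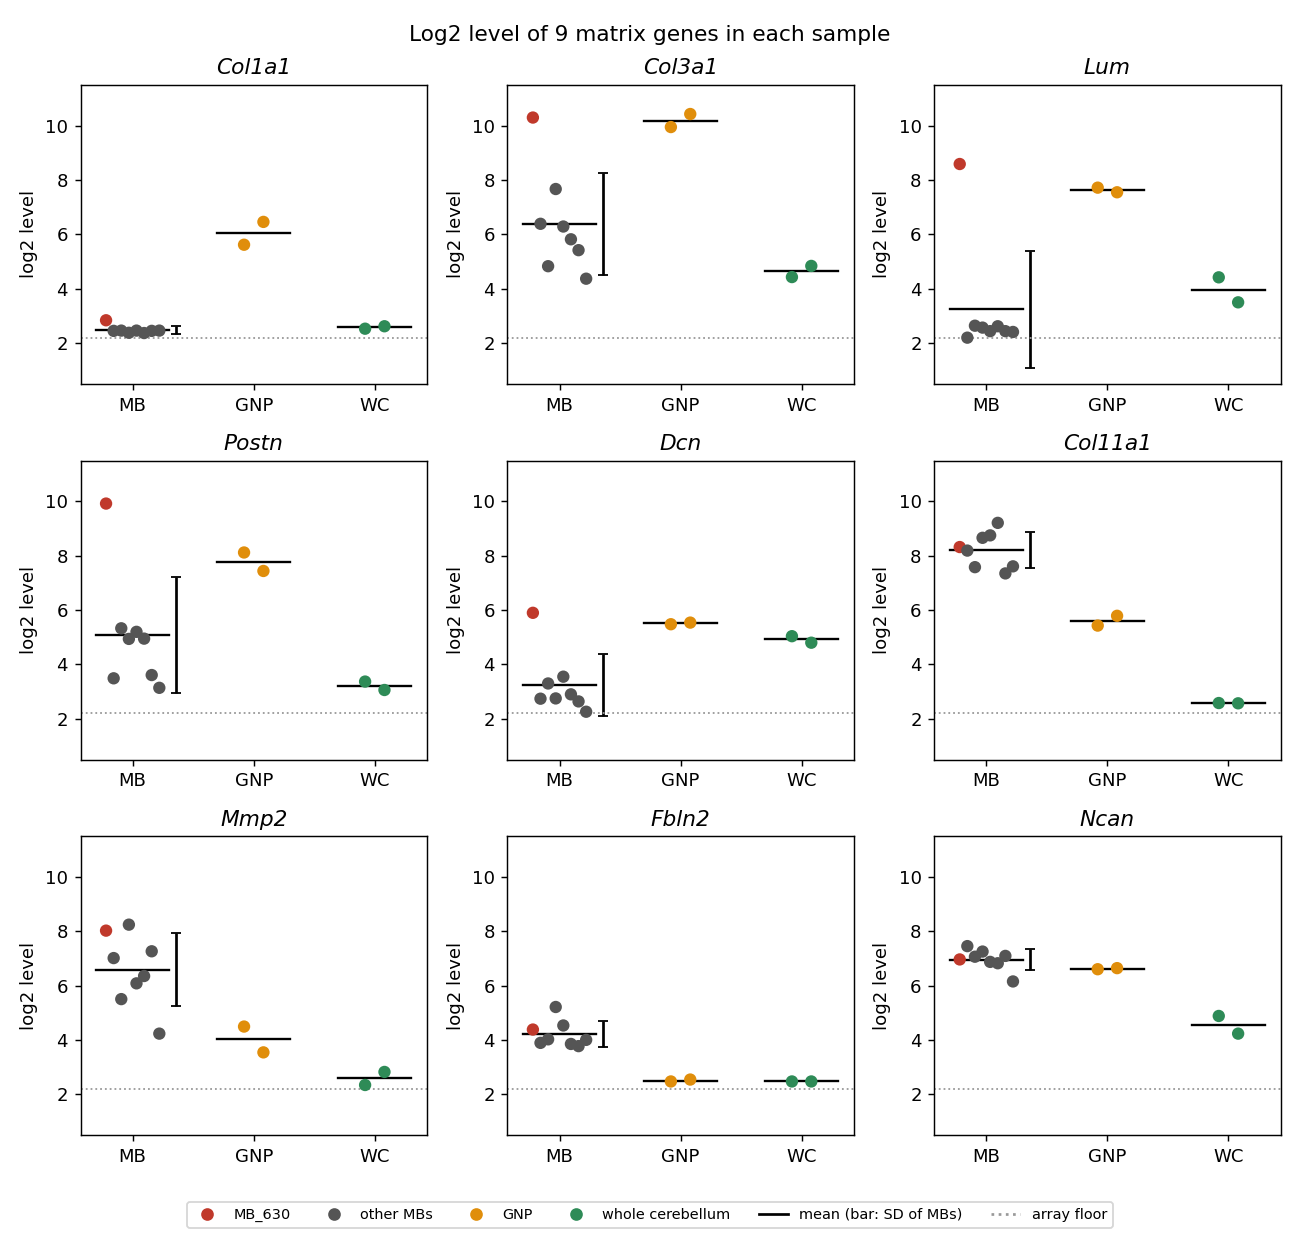
Log2 level of 9 genes in each sample (points), with MBs left, GNPs in the middle and WC right; horizontal lines are group means, vertical bars the SD of the 8 MBs, and the dotted line the array floor. MB_630 (red) lies between the GNP samples for Col3a1 and above both for Lum, Postn and Dcn, and all MBs lie above the normal samples for Col11a1 and Fbln2.

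Markers of meningeal and fibroblast cells were counted beside these genes. Their mean over 16 genes was between 3.64 and 4.72 in the MBs, with 4.09 as the highest value without MB_630, against 4.18 and 3.82 in the GNPs. In MBs 4 of the 16 were lower than in GNPs, against 18.6% of all genes, and 2 were higher, against 18.7%. Among the lower were Gjb2, a gap junction gene of meninges, and Foxc1, a meningeal transcription factor (3.11 in MBs, 4.72 in GNPs). Pdgfra and Islr were higher in MBs (8.99 and 8.64 in MBs, against 6.46 and 5.22 in GNPs), and 3 of the 16 were near the floor on all 12 arrays. Astroglial markers were counted as well. Their mean over 12 genes was between 5.42 and 7.93 in the MBs, against 8.05 and 8.15 in the GNPs and 9.38 and 9.32 in WC. Of the 12, 4 were lower in MBs than in GNPs, against 18.6% of all genes, and 1 was higher, against 18.7%. Compared with WC, 8 were lower in MBs, against 21.8% of all genes, and 1 was higher, against 22.2%. Gfap, a filament of astrocytes, averaged 6.12 in the MBs, 9.02 in the GNPs and 5.01 in WC. Aqp4, their water channel, averaged 5.47, 9.20 and 9.01 in the same groups. Sox9, the 1 that was higher in MBs, averaged 6.56, 5.6 and 5.58. In GNPs, 1 of the 12 (Gfap) was higher than in WC, against 14.9% of all genes, and 3 were lower, against 13.6%. Among the lower were Gdf10 (6.62 in GNPs, 12.22 in WC) and S100b (7.9 in GNPs, 12.41 in WC). The part of meningeal, fibroblast and astroglial cells in the differences was not tested.

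A further 6 members were also lower in MBs than in GNPs. Nid1 (nidogen 1, a link of basement membranes) averaged 4.54 ± 0.64 in the MBs (SD, n = 8), against 6.08 and 6.43 in the GNPs, a difference of -1.71 (adjusted p = 0.0111, 0.103 without CGNP_2705). Lamb1, the laminin beta 1 chain, averaged 3.91 ± 0.43 in the MBs, against 5.02 and 5.10 in the GNPs (difference -1.15, adjusted p = 0.0106). Its call was lost without CGNP_2698 (adjusted p = 0.0616) or CGNP_2705 (adjusted p = 0.0802). For both genes all MBs were below both GNP samples. Timp3, an inhibitor of metalloproteases that binds to the matrix, averaged 5.19 ± 0.62 in the MBs, against 6.91 and 6.58 in the GNPs (difference -1.56, adjusted p = 0.0161), and its call was lost without CGNP_2698 (adjusted p = 0.128) or CGNP_2705 (adjusted p = 0.0648). The calls of Lox, the enzyme that cross-links collagen (at least 1.31 lower, adjusted p = 0.00998), and of Timp1, another inhibitor (difference -1.18, adjusted p = 0.0276), were lost without CGNP_2705, with adjusted p-values of 0.124 for Lox and 0.377 for Timp1. For Lox 1 of 3 probe sets carried the signal, at 2.57 in MBs and 6.31 in GNPs. For Col12a1 3 of 4 probe sets were near the floor in every group, which lowers the averaged difference by construction. On the remaining probe set it was at 4.64 in MBs and 5.67 in GNPs. Col12a1, a collagen on the surface of fibers, had the smallest difference (at least 0.49 lower, adjusted p = 0.0445), and its call was lost when any 1 of 9 samples was left out (adjusted p between 0.0549 and 0.3): both GNP samples, both WC samples and MB_706, MB_794, MB_1187, MB_1206 and MB_1224.

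Type VI collagen forms beaded filaments around cells. Col6a1, Col6a2 and Col6a3 averaged 4.70, 3.68 and 3.07 in the MBs, against 5.66, 5.27 and 4.41 in the GNPs, and they did not pass the test with all MBs. In MB_630 the 3 chains were at 7.09, 5.70 and 5.48. Without this tumor the difference of Col6a2 was -1.88 (adjusted p = 0.00713) and Col6a3, then near the floor in MBs, was at least 1.68 lower (adjusted p = 3.43e-05), so that both were called lower.

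The remaining members did not pass the test between MBs and GNPs, and most overlapped. Tnc (tenascin C) averaged 4.67 ± 0.76 in the MBs (SD, n = 8), against 5.79 and 5.82 in the GNPs and 5.30 and 5.55 in WC. All MBs were below both GNP samples, but the difference of -1.13 did not pass (adjusted p = 0.124). Fn1 (fibronectin) averaged 5.86 in the MBs, 5.90 in the GNPs and 5.44 in WC. Its 2 probe sets went in opposite directions between MBs and GNPs, with differences of -0.64 and 0.55. Fbln1 averaged 4.74, 4.10 and 4.18 in MBs, GNPs and WC, and Vcan averaged 4.61, 4.82 and 4.03. Lama4, a laminin chain of vessels, averaged 3.39 in the MBs and 3.61 in the GNPs, and it was called lower only without MB_630 (-0.26, adjusted p = 0.0496).

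Col11a1 was the only fibrillar collagen that was higher in MBs than in GNPs. It encodes a minor fibrillar chain that regulates the diameter of fibers and is best known from cartilage. Its level was between 7.35 and 9.21 in the MBs (median 8.25), against 5.43 and 5.79 in the GNPs. All 8 MBs were above both GNP samples, and MB_630 lay among the others. The difference was 2.60 (SE 0.45, adjusted p = 0.00119), with adjusted p-values between 0.000232 and 0.0192 over all alternatives. Fbln2 (fibulin 2, a glycoprotein of basement membranes and elastic fibers) was between 3.78 and 5.22 in the MBs (median 4.02), against 2.48 and 2.55 in the GNPs. The groups did not overlap, and MBs were at least 1.70 higher (SE 0.328, adjusted p = 0.00228). One of its 2 probe sets was at the floor in every group, and on the other Fbln2 was at 6.23 in MBs and 2.83 in GNPs. Bcan (brevican, a proteoglycan of the brain matrix) was between 5.60 and 8.04 in the MBs (median 6.95), against 4.45 and 5.39 in the GNPs. The lowest MBs, MB_1207 and MB_1224, were close to the higher GNP sample. The difference was 1.95 (SE 0.652, adjusted p = 0.0395), and the call was lost without either GNP sample, either WC sample or any 1 of MB_706, MB_794, MB_1197 and MB_1206 (adjusted p between 0.0556 and 0.299). Mmp2 (gelatinase A, a protease that cuts basement membrane collagen) was between 4.24 and 8.25 in the MBs (median 6.69), against 4.50 and 3.55 in the GNPs. Only MB_1224 was below a GNP sample, and the difference of 2.57 did not pass the test with all MBs (adjusted p = 0.0549) but passed without MB_1224 (2.91, adjusted p = 0.0113).

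**Figure D3:**
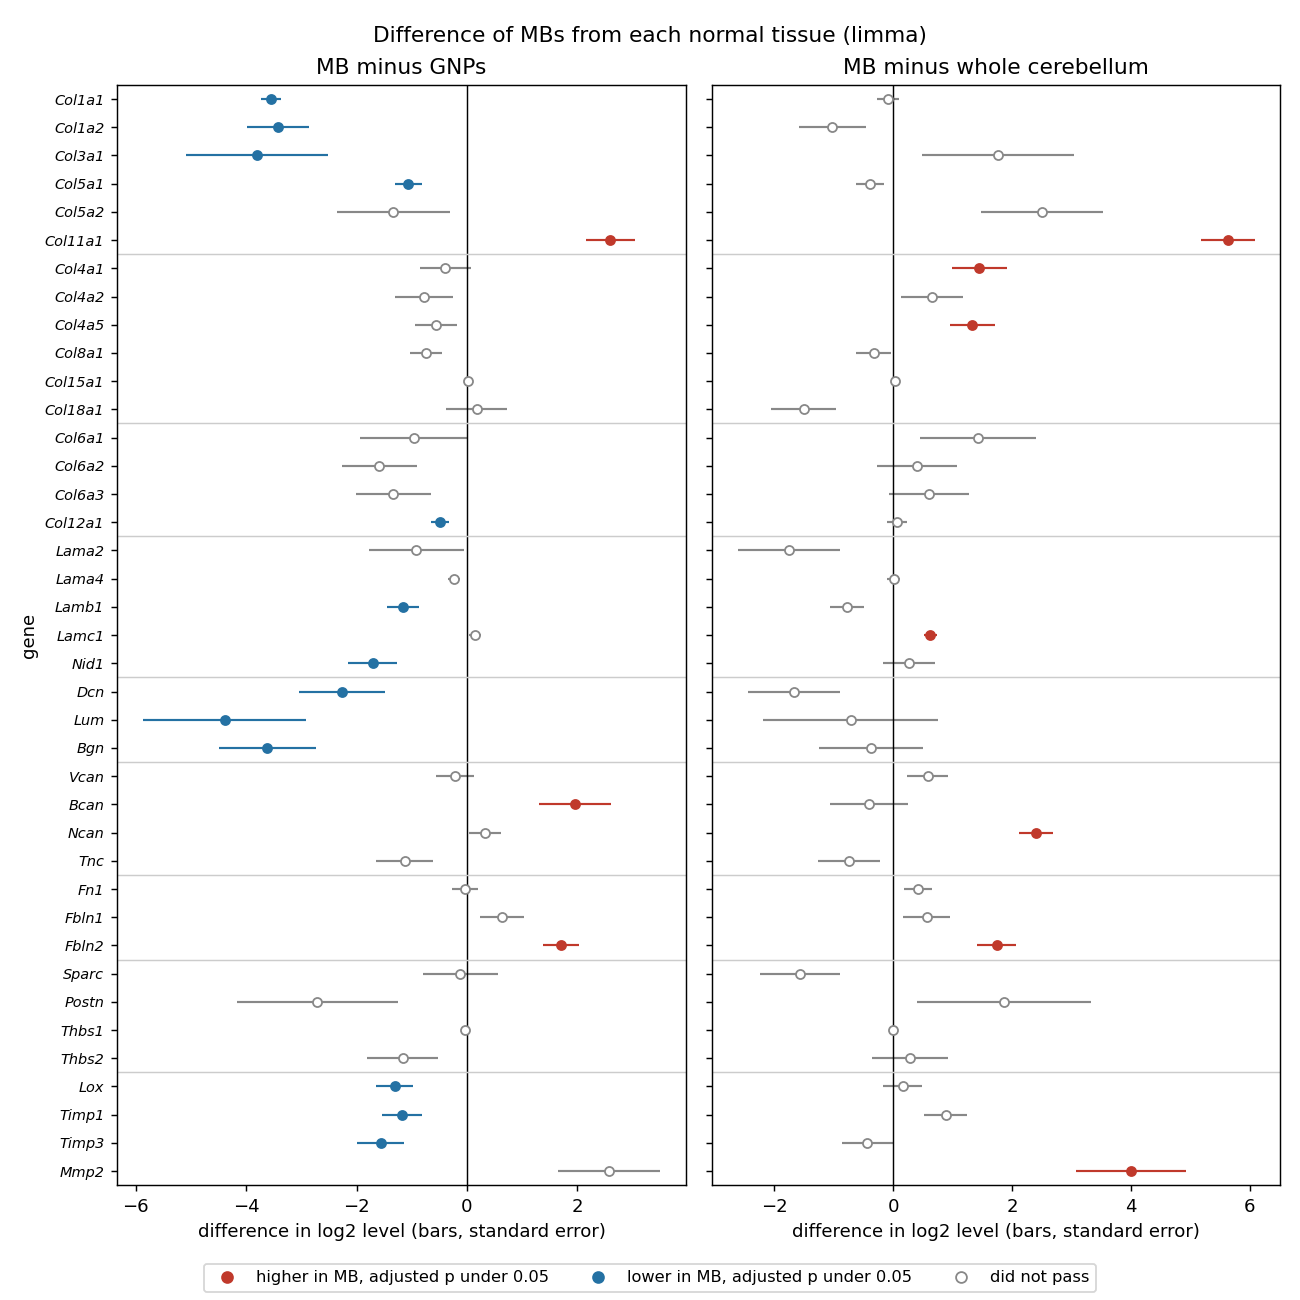
Difference in log2 level of each of the 39 genes between MBs and GNPs (left) and between MBs and WC (right), with standard errors from limma; filled points passed an adjusted p of 0.05, red when higher and blue when lower in MBs. Blue points occur only on the left, where 13 genes were lower in MBs.

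The promoters of 6 members that moved in opposite directions between MBs and GNPs are shown so that their sequences can be compared. They are 3 of the 13 members called lower, chosen by name, and the 3 called higher. Col1a2, Col3a1 and Bgn were lower in MBs, and Col11a1, Fbln2 and Bcan were higher. Each sequence is the 250 bases before the start of the gene in RefSeq (GRCm38.p6), read along the strand of the gene from 5′ to 3′. Capitals mark matches, on either strand, to 5 motifs. These were TATAAA for the TATA box, CCAAT for the box of that name, GGGCGG for the GC box, TGANTCA for AP-1 sites and GACCACCCA for GLI sites.
Col1a2, chr6:4505368-4505617, plus strand: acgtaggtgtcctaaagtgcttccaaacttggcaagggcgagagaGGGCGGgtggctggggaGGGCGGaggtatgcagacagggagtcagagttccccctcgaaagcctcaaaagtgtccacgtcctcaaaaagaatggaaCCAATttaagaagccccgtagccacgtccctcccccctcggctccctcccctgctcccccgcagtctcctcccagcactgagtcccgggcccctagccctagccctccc
Col3a1, chr1:45311288-45311537, plus strand: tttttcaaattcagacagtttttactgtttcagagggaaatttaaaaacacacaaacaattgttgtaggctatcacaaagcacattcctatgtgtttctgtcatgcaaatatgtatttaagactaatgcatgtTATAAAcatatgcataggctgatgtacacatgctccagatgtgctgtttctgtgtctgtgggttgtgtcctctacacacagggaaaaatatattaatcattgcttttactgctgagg
Bgn, chrX:73483351-73483600, plus strand: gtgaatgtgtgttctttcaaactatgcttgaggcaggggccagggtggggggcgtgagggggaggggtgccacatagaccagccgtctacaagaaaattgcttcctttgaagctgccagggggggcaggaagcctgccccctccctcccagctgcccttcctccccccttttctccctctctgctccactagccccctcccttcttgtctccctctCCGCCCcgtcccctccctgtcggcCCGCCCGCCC
Col11a1, chr3:114030290-114030539, plus strand: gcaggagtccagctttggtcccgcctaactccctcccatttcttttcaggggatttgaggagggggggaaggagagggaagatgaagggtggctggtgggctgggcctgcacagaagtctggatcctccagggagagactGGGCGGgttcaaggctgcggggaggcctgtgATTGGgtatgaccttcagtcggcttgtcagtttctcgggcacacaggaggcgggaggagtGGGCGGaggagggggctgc
Fbln2, chr6:91212514-91212763, plus strand: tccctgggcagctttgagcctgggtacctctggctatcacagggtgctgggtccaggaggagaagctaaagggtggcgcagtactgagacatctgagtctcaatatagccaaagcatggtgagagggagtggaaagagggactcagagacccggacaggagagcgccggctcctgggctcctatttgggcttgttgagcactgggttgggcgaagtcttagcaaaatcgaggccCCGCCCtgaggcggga
Bcan, chr3:88000357-88000606, minus strand: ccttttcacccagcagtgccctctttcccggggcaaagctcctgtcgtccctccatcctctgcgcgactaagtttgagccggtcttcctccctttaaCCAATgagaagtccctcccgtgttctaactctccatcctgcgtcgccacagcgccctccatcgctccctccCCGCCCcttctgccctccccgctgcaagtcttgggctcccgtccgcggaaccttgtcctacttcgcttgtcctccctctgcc
Col3a1 has a TATAAA match and no GC box match, Col1a2 holds 1 CCAAT and 2 GC box matches, and Bgn holds 3 GC box matches, of which 2 overlap. Col11a1 holds 1 CCAAT and 2 GC box matches, Bcan has 1 of each, and Fbln2 has 1 GC box match. Of 32851 promoter windows of this length, 12.4% hold TATAAA, 33.8% CCAAT, 32.7% GGGCGG, 6.75% TGANTCA and 0.225% GACCACCCA. Of the 34 windows of 29 members, 6 hold TATAAA, 12 CCAAT, 22 GGGCGG and 1 TGANTCA. These matches are a description of the letters and not of binding.

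The comparison of MBs with whole cerebellum gave another set. Against WC, Col11a1, Mmp2, Ncan, Fbln2, Col4a1, Col4a5 and Lamc1 were higher in MBs. These were 7 of the 39 members, against 22.2% of all genes. With limma 0 members were lower, against 21.8% of all genes. At an unadjusted p under 0.05 there were 3 lower (Col18a1, Lamb1 and Sparc), and the methods' t-test gave 0 after adjustment. All 8 MBs were above both WC samples for 9 members, against 24.3% of all genes, and below them for 2 (Col18a1 and Sparc), against 22.6%. Without MB_630 there were 8 higher and 5 lower (Col18a1, Lama2, Lamb1, Dcn and Lum), and without MB_706 there were 7 higher and 0 lower. The calls of Col11a1, Fbln2, Ncan and Lamc1 were made again whichever sample was left out. Those of Fbln2 and Lamc1 were lost with values below 5 set to 5. When each array was shifted to the same median, which moved the median of all genes by -0.19, there were 7 higher and 7 lower, and after quantile normalization 8 higher and 2 lower.

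Col11a1 was near the floor in WC (2.58 and 2.57) and at least 5.63 higher in the MBs (SE 0.45, adjusted p = 4.27e-06). Mmp2 was at 2.35 and 2.83 in WC, below every MB, and at least 4.00 higher in the MBs (SE 0.928, adjusted p = 0.00533, 0.054 without WC_2646). Ncan (neurocan, a proteoglycan of the developing brain) was between 6.16 and 7.46 in the MBs (median 7.02), against 4.89 and 4.24 in WC. The MBs and the GNPs (6.61 and 6.65) overlapped, and both were above WC. The difference of MBs from WC was 2.40 (SE 0.288, adjusted p = 7.31e-05). Fbln2 was at 2.48 in both WC samples and at least 1.74 higher in the MBs (adjusted p = 0.00155).

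Markers of microglia and macrophages also moved with the MBs. Their mean over 13 genes was between 6.05 and 7.21 in the MBs, against 3.59 and 4.48 in the GNPs and 4.72 and 4.92 in WC. Of the 13 markers, 9 were higher in MBs than in GNPs, against 18.7% of all genes, and 7 were higher than in WC, against 22.2%. The part of these cells in the differences of the matrix genes was not tested.

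Of the basement membrane collagens and laminins, Col4a1, Col4a5 and Lamc1 were higher in MBs than in WC. Col4a1 and Col4a5, chains of type IV collagen, averaged 7.25 ± 0.67 and 6.56 ± 0.53 in the MBs (SD, n = 8). In WC, Col4a1 was at 5.96 and 5.63, and Col4a5 was at 4.90 and 5.55. All MBs were above both WC samples for each gene, with differences of 1.45 for Col4a1 (adjusted p = 0.0276) and 1.33 for Col4a5 (adjusted p = 0.0155). The call of Col4a1 was lost without WC_2646 (adjusted p = 0.0912) or WC_2647 (adjusted p = 0.177), and that of Col4a5 without WC_2646 (adjusted p = 0.179). Col4a2, whose gene lies head to head with Col4a1 with the start sites 21 bases apart, averaged 6.67 in the MBs, 7.45 in the GNPs and 6.01 in WC, and did not pass the test. Lamc1, the laminin gamma 1 chain, averaged 4.13 ± 0.16 in the MBs, against 3.53 and 3.49 in WC, a difference of 0.62 (SE 0.108, adjusted p = 0.000902). One of its 2 probe sets was near the floor in every group, and on the other the difference was 1.24. None of the 6 basement membrane collagens and their kin passed the test between MBs and GNPs with limma, and 1 (Col8a1) had an unadjusted p under 0.05. The methods' t-test called 0 of these 6 after adjustment. Col8a1 was at 3.75 in CGNP_2698 but at 2.31 in CGNP_2705, and it was near the floor in MBs. Without CGNP_2705 it was at least 1.46 lower in MBs, a difference that rests on 1 GNP sample. Col15a1 and Thbs1 had every probe set near the floor in all groups, and their differences are not read as changes.

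Col18a1, the collagen from which endostatin is cut, was between 5.77 and 7.95 in the MBs, against 8.68 and 8.60 in WC. All MBs were below WC, and MB_630 was the lowest. The difference was -1.51 and missed the threshold (adjusted p = 0.0504). It passed without MB_630 (adjusted p = 0.0374), without MB_1187 (adjusted p = 0.0388) or without MB_1197 (adjusted p = 0.049). Sparc (osteonectin, which binds collagen and is abundant in glia) was between 6.06 and 8.49 in the MBs, against 9.24 and 9.15 in WC, and its difference of -1.57 did not pass (adjusted p = 0.0896). One of the 3 probe sets of Sparc was near the floor in every group, and on the others the difference was -2.50 and -2.24. Lama2, a laminin chain of muscle and vessel basement membranes, averaged 3.92 in the MBs, against 5.68 in WC. Without MB_630 its difference was -2.15 (adjusted p = 0.00361).

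Endothelial markers were lower in the MBs than in WC for 9 of 13 genes, against 21.8% of all genes. The mean of this list was between 3.12 and 4.65 in the MBs, with MB_630 the highest, against 5.18 and 5.20 in WC and 3.10 and 3.03 in the GNPs. The part of vessel cells in the levels of Col4a1 and Col4a5 was not tested. The pericyte and smooth muscle list was between 2.88 and 4.10 in the MBs, against 3.83 and 3.85 in WC.

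The normal tissues, granule neural progenitors and whole cerebellum, were also set against each other. Of the 39 members, 11 were higher in GNPs than in WC, against 14.9% of all genes. Limma called 0 lower, against 13.6%, while 2 (Bcan and Col18a1) were lower at an unadjusted p under 0.05 and the methods' t-test called 2 lower after adjustment (Col18a1 and Sparc). The groups of 2 did not overlap for 30 members that were higher in GNPs, against 31.5% of all genes, and for 4 that were lower, against 27.8%. Col3a1 was at 9.95 and 10.43 in the GNPs, against 4.43 and 4.84 in WC, a difference of 5.56 (adjusted p = 0.0279). It was lost without CGNP_2698 (adjusted p = 0.0854), CGNP_2705 (adjusted p = 0.113), WC_2646 (adjusted p = 0.114) or WC_2647 (adjusted p = 0.0877). Col1a1 was at least 3.46 higher in the GNPs (adjusted p = 3.05e-06), and Col11a1 was at least 3.03 higher (adjusted p = 0.00283). Leaving out CGNP_2698 left 5 members higher, and leaving out CGNP_2705, WC_2646 or WC_2647 left 4 each. Only the calls of Col1a1, Col11a1 and Ncan (2.07, adjusted p = 0.00194) were made again whichever sample was left out. The call of Col11a1 was lost with values below 5 set to 5, and those of Col1a1 and Ncan with the methods' t-test. Without MB_630, which enters here only through the shared estimate of the spread, 18 members were higher and 1 was lower. After each array was shifted to the same median there were 13 higher and 2 lower.

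Against both normal tissues together, as the study groups them, 5 members were higher in MBs, against 20.0% of all genes, and 4 were lower, against 16.4%. The higher ones were Col11a1 (4.11, adjusted p = 0.000551), Fbln2 (at least 1.72, adjusted p = 0.000215), Mmp2 (3.29, adjusted p = 0.00467), Ncan and Lamc1. The lower ones were Col1a2, Col5a1, Lamb1 and Dcn. Only Col11a1 and Fbln2 had all 8 MBs above all 4 normal samples, which held for 15.5% of all genes, and no member had all MBs below them, as 12.1% of all genes did. The MBs overlapped with the GNPs for Mmp2, Ncan and Lamc1. Only the calls of Col11a1, Fbln2, Mmp2 and Lamb1 were made again whichever sample was left out. Of these, Lamb1 was lost with the probe set of highest level, and Lamb1 and Mmp2 with array weights. With values below 5 set to 5, Fbln2, Mmp2 and Lamb1 were lost. The calls of Col1a2, Col5a1 and Dcn were lost without CGNP_2698 or CGNP_2705 (adjusted p between 0.0504 and 0.0723). Those of Ncan and Lamc1 were lost without WC_2646 or WC_2647 (adjusted p between 0.0995 and 0.109). Ncan was also lost without any 1 of MB_630, MB_706, MB_794, MB_1187, MB_1197 and MB_1207 (adjusted p between 0.0506 and 0.0576), and Lamc1 without MB_794 or MB_1224 (adjusted p = 0.0506 and 0.0518). With arrays shifted to the same median there were 4 higher and 12 lower.

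The spread between tumors was wide for the matrix genes. An SD over the 8 MBs of at least 1 was found for 9 of the 39 members, against 2.08% of all genes. Among genes with a mean MB level above 5, it was found for 5 of 15 members, against 2.77% of 8289 genes. The median SD was 0.66 for the members and 0.18 for all genes. The largest were those of Lum (2.17), Postn (2.14), Col3a1 (1.88), Col5a2 (1.50) and Col6a1 (1.40). A highest or lowest MB was counted only where it stood more than 0.05 from the next MB on the log2 scale. MB_630 was the highest MB for 26 of the 39 members, against 8.94% of all genes, and it was at least 1 above every other MB for 12 of them, against 1.11% of all genes. Without it the median SD of the members was 0.47, and 5 had an SD of at least 1.

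Postn (periostin, a matricellular protein of fibroblasts) had a level of 9.92 in MB_630, while the other 7 MBs lay at 3.14 to 5.33, against 8.12 and 7.44 in the GNPs and 3.37 and 3.06 in WC. MB_630 was thus above both GNP samples and the others below them. With all MBs the difference from GNPs was -2.71 (adjusted p = 0.19), and without MB_630 it was -3.40 (adjusted p = 0.00275). Thbs2 (thrombospondin 2, another matricellular protein) was at 5.73 in MB_630 and at 3.34 or below in the others, against 4.41 and 4.78 in the GNPs. Col5a2 was at 9.60, above every other MB (8.48 or below). Lama2 was at 6.66, with the other MBs at 4.05 or below. The neighbours in the genome Col3a1 and Col5a2 (chromosome 1), Col6a1 and Col6a2 (chromosome 10) and Dcn and Lum (chromosome 10) were all highest among MBs in MB_630, as were Col4a1 and Col4a2. This was not particular to neighbours, since MB_630 was the highest MB for 26 of the 39 members. The median deviation of the 39 members from the other MBs was 0.97 in MB_630, and 0.00 over all genes.

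**Figure D4:**
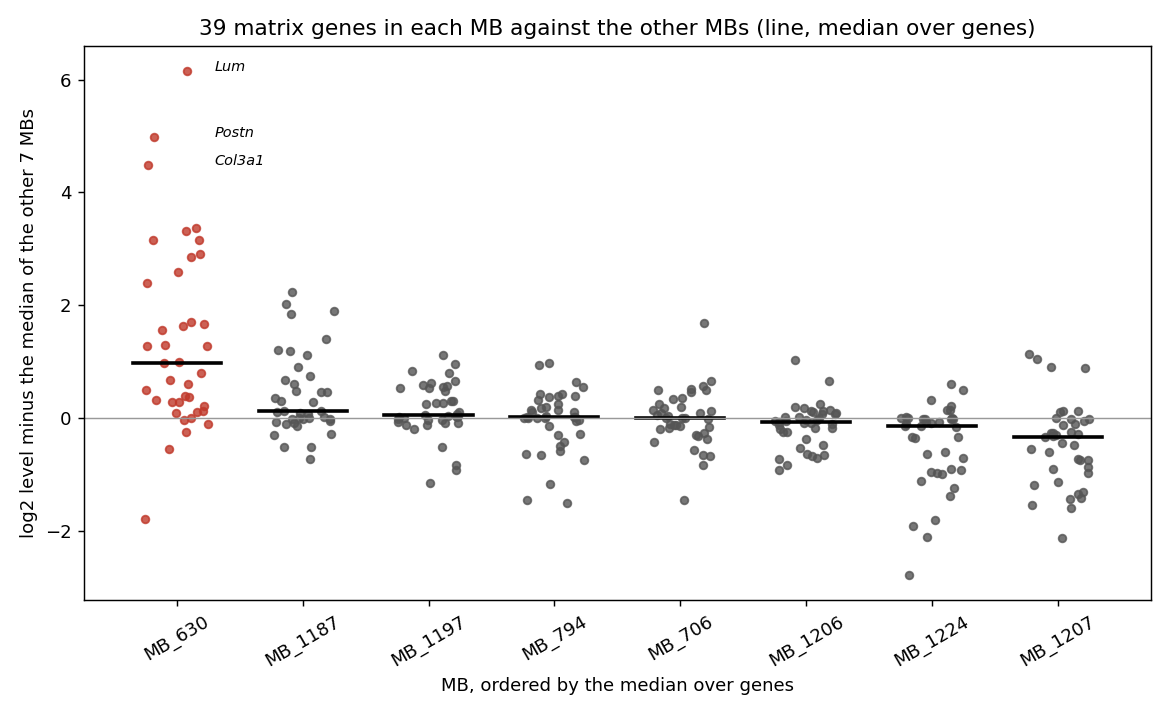
Deviation of each of the 39 genes (points) in each MB from the median of the other 7 MBs, in log2, with the tumors ordered by their median over genes (black line). MB_630 (red) has a median of 0.97 and the largest deviations for Lum, Postn and Col3a1, while MB_1207 and MB_1224 have medians of -0.33 and -0.15.

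Some markers of other cell types were also higher in MB_630. It was the highest MB for 3 of 16 fibroblast and meningeal genes and 4 of 14 pericyte and smooth muscle genes. The same held for 9 of 13 endothelial genes and for 8.94% of all genes. Twist1, a mesenchymal transcription factor, was at 8.52 in MB_630 and 6.66 in MB_706, against 2.25 or below in the other MBs. Tbx18, of pericytes and meninges, was at 7.08 in MB_630, against 2.58 or below, and Tagln, of smooth muscle, was at 8.11, against 5.28 or below. The mean of the fibroblast and meningeal list was 4.72 in MB_630 and 3.64 to 4.09 in the others, and that of pericytes and smooth muscle was 4.10 and 2.88 to 3.73. Twist1 and Tbx18 are part of the first mean and Tagln of the second, and they were named after their values were seen. The endothelial list was at 4.65 in MB_630 and 3.12 to 4.00 in the others. Lists of neurons moved too, with Purkinje cell markers at 7.43 in MB_630 and 3.64 to 5.59 in the others, and granule neuron markers at 8.53 and 6.39 to 7.40. Other fibroblast and meningeal markers were within the range of the other MBs. These were Pdgfra (9.45, others 8.26 to 9.66), Islr (8.13, others 8.03 to 9.31) and Foxc1 (3.25, others 2.68 to 3.34). Twist2 was near the floor. The part of these cells in the matrix levels of MB_630 was not tested.

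**Figure D5:**
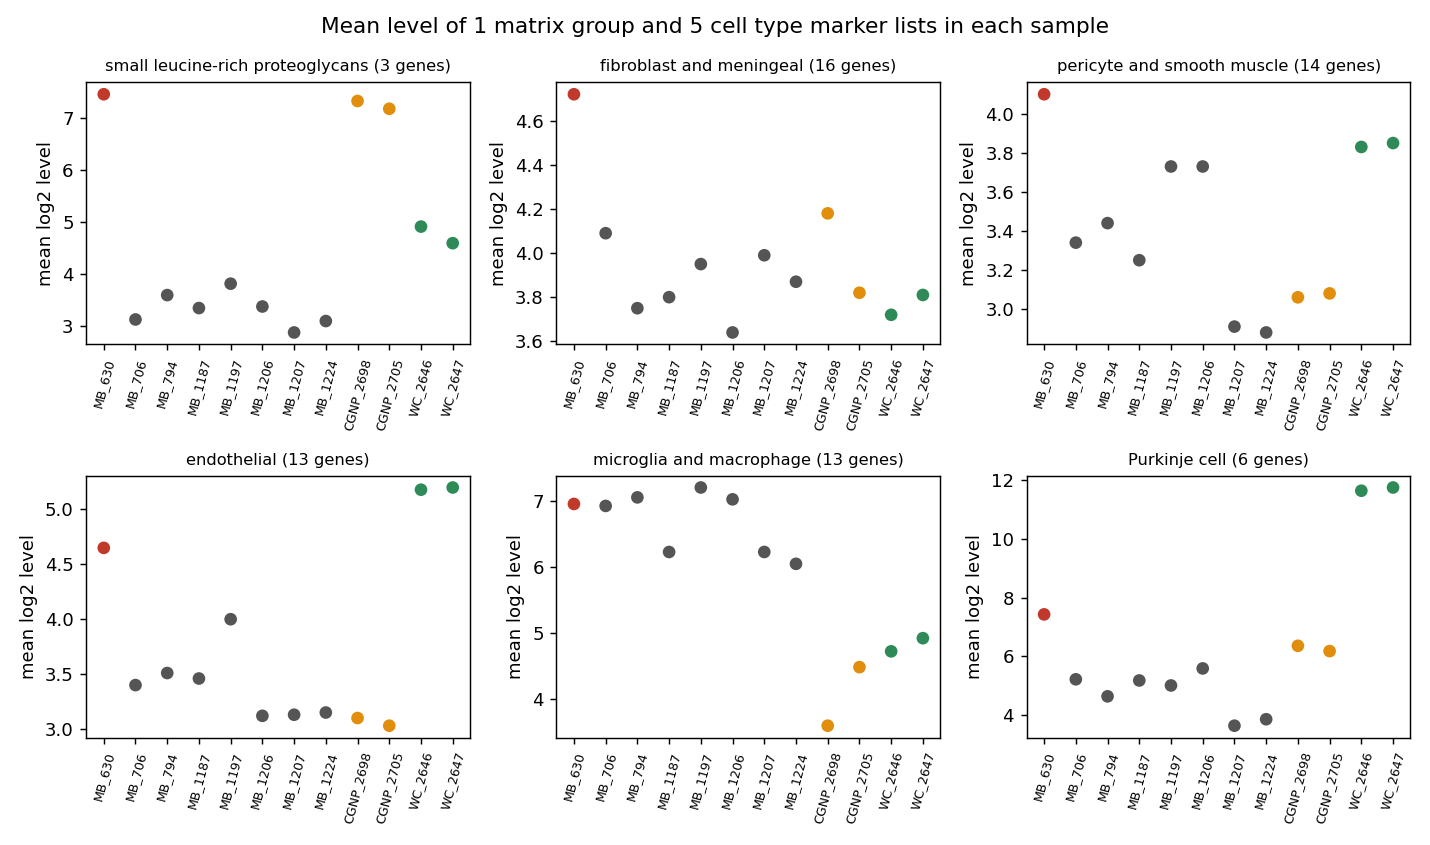
Mean log2 level of the 3 small leucine-rich proteoglycans and of 5 lists of cell type markers in each sample, with MB_630 in red, the other MBs in grey, GNPs in orange and WC in green. The proteoglycans are at 7.46 in MB_630 and at 3.81 or below in the other MBs, and the fibroblast and meningeal, pericyte, endothelial and Purkinje cell lists are also highest among MBs in MB_630.

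At the other end, MB_1207 was the lowest MB for 15 of the 39 members, against 10.2% of all genes, and MB_1224 was the lowest for 7, against 4.95%. Sparc was at 6.06 in MB_1207 and 6.07 in MB_1224, a tie, and at 7.67 or above in the other MBs. The astroglial list was lowest in the same 2 tumors, with means of 5.42 for MB_1207 and 6.23 for MB_1224 where the remaining MBs had 7.16 to 7.93, and so was Rgs5, a pericyte gene, at 5.33 and 5.65, against 6.87 to 9.02. MB_1207 was also the highest MB for Vcan (versican, 5.57), Fbln1 (fibulin 1, 5.69) and Timp3 (6.05), so that it was not low for all members. Col11a1, Fbln2 and Ncan had no tumor that stood apart, with SDs of 0.66, 0.48 and 0.39.

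The wider matrix gave both directions. Of 26 further collagens, 3 were higher and 7 lower in MBs than in GNPs, against 18.7% and 18.6% of all genes. The same 2 shares stand beside each further count against GNPs in this paragraph. Col9a3, a chain of a collagen found with type XI in cartilage, averaged 9.47 in the MBs, against 6.78 in the GNPs (difference 2.69, adjusted p = 0.000793). Of 16 further genes of the brain matrix, 9 were lower in MBs than in WC, against 21.8% of all genes. Among them Hapln4, a link protein of nets around neurons, was at 2.54 in MBs and 8.21 in WC. Of 20 genes of collagen processing and crosslinking, 9 were higher and 4 lower in MBs than in GNPs, and Pcolce, an enhancer of procollagen cleavage, was lower (3.97 in MBs, 6.54 in GNPs). Of 25 proteases and inhibitors, 2 were higher and 10 lower in MBs than in GNPs, with Mmp14, an activator of Mmp2, among the higher (6.58 in MBs, 5.24 in GNPs). Of 27 matrix receptors, 4 were higher and 8 lower than in GNPs, and the collagen receptor Ddr2 averaged 7.58 in the MBs and 5.43 in the GNPs. Of 9 further small leucine-rich proteoglycans, 2 were lower in MBs than in GNPs, Ogn (osteoglycin, 2.51 in MBs and 6.29 in GNPs) and Podn (podocan), which was near the floor in both groups (2.20 in MBs and 2.37 in GNPs).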

How the data were processed

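RNA levels come from Affymetrix mouse expression arrays. The authors used affy with GCRMA in R. The deposited values are log2 levels, 1 per probe set and array. The arrays hold 45101 probe sets. Leaving out 64 controls, 34945 named 1 gene, 932 several genes and 9160 none in the probe table. Symbols were updated through gene IDs to RefSeq, and 162 genes had no match. The level of each gene was averaged over probe sets that name it alone and lack the suffixes s or x (all, for 290 genes without such). In all 18193 genes were tested, and low levels were not filtered. Of the 39 measured members, 28 had over 1 probe set, and in 14 a probe set near the floor in all groups was averaged with one above it, which lowers the level and the difference by construction.

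Tests used limma 3.58.1 in R 4.3.3 through lmFit and eBayes. They were two-sided, p-values were adjusted by Benjamini-Hochberg across the 18193 genes, and calls were made under 0.05. A fit with 3 groups (8 MBs, 2 GNPs, 2 WC) compared them in pairs, so that the comparisons share samples, and a fit with 2 groups compared MBs with the 4 normal samples. The scripts were tested on simulated data. The number of arrays limits the precision, above all in the groups of 2. Alternatives were other rules for probe sets, quantile normalization, a shift of each array to one median, array weights, a trend and robust spread, a filter on level, a floor at 5, the methods' t-test, the 2 groups alone and each sample left out in turn. Named genes are all members and, of each other list, the 2 genes with the largest and the 2 with the lowest difference past the test in a comparison, with other genes of the marker lists named after their values were seen. The members and lists were chosen with earlier results of these data known. Figures were drawn with matplotlib 3.10.9.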

Additional observations from a re-analysis of the deposited data

Results flagged for a closer look

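For 11 of the 39 members (28.2%), 1 MB stood apart from the other 7 by its gap to the nearest value. The same held for 23.8% of all genes, so the members were near that share. The cut-off is meant to flag about 1 in 20 groups of normally distributed values, a rate that did not hold over all genes. MB_630 was the one apart for 9 of the members (23.1%), against 2.89% of all genes. Its levels were 2.84 for Col1a1, 5.48 for Col6a3, 6.66 for Lama2, 5.90 for Dcn, 8.59 for Lum, 7.91 for Bgn, 9.92 for Postn, 5.73 for Thbs2 and 3.52 for Lox. For Col1a1 and Lox the other MBs were near the floor. MB_1207 was apart for Col5a1, where it was lowest at 3.17, and for Thbs1, where it was highest at 2.33 although every value of this gene was near the floor.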

How the results depend on the processing

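The main limits are the groups of 2 normal samples, MB_630 and levels near the floor. When a sample was left out in turn, members lower in MBs than in GNPs numbered 3 to 19 and members higher numbered 2 to 4. Against WC, 4 to 8 were higher in MBs and 0 to 5 lower. In GNPs against WC, 4 to 18 were higher and 0 to 1 lower. Against both normal tissues together, 3 to 5 were higher in MBs and 1 to 8 lower, and an SD of at least 1 was found for 5 to 13 members. With values below 5 set to 5, the counts in MBs were 1 higher and 8 lower against GNPs, 4 higher against WC, and 2 higher and 1 lower against both together, because differences below that level are removed. Members lower in MBs than in WC numbered 1 with the probe set of highest level, 1 with all one-gene probe sets, 2 after quantile normalization, 7 with arrays shifted to one median, 1 with array weights, 1 with a trend and robust spread and 3 with only genes above 5. The shift also moved genes at the floor, and 9792 of all genes were then lower in MBs than in WC. In GNPs against WC, the methods' t-test gave 6 higher and 2 lower, the 2 groups alone gave 19 higher and 2 lower, and members lower numbered 1 with all one-gene probe sets, 2 with shifted arrays and 1 with only genes above 5. Against both together, members higher in MBs numbered 3 with array weights and 3 with only genes above 5, and members lower numbered 2 with the probe set of highest level, 12 with shifted arrays and 0 with array weights. An SD of at least 1 was found for 15 members with the probe set of highest level, and 25 had an SD of at least 0.5. Col15a1, near the floor in all groups, changed sign with shifted arrays, to -0.165 against WC (adjusted p = 0.0034) and -0.113 against both together (adjusted p = 0.0225), since the shift moves values at the floor. Apart from the floor and the shift, the cause was not tested. No paired analysis was possible because the groups share no replicate numbers.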
